A study of Mus musculus with 4 samples.

Results

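The genes of store-operated calcium entry measured here were the pore subunits Orai1, Orai2 and Orai3, the calcium sensors Stim1 and Stim2, the inhibitor Saraf and the STIM activator Stimate. They were chosen by gene symbol in the platform annotation, which matched all 7 genes and gave 8 of the 23473 gene probes on the array, with 2 probes for Stim2 and 1 for each other gene. The set was proposed with the genotype values of these samples known, so the differences between genotypes below are a description and carry no p-value of their own.

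Ventricular muscle of male mice of strain 129SV was compared between 2 wild-type samples (genotype WT) and 2 samples that lacked Trpc6 by genetic deletion (TRPC6 KO). Trpc6 encodes a receptor-operated cation channel that admits calcium. Total RNA of each sample was amplified, labelled with Cy5 and read on 1 single-colour oligonucleotide array. No treatment was given in the labels, and age, the deleted exons, the cells that lost the gene and the number of animals behind a sample were not given in the sources used here. Replicates may be technical, and their number limits the precision of every value.

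When calcium is released from the endoplasmic or sarcoplasmic reticulum, STIM proteins in the reticulum membrane lose calcium from their luminal sensor domain, cluster where the reticulum touches the plasma membrane and open ORAI channels there. SARAF, a reticulum protein, slows and ends this coupling, and STIMATE supports the STIM1 switch and the contact sites. Adult ventricular muscle cells take in calcium mainly through voltage-gated channels, and store-operated entry is best known there from immature and hypertrophic cells, where TRPC channels have been studied beside it.

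Heart muscle in the samples showed in 8 of 8 cardiomyocyte markers above background on all 4 arrays, with a summed spot intensity of 180676 to 215557 scanner units. This list does not tell ventricle from atrium, and the ventricular origin is given by the sample labels. Between 76.3% and 83.2% of gene probes lay above background on an array, that is, above the 95th percentile of its blank and negative control spots. The deletion could not be checked, because the Trpc6 probe read 80.5 and 89.2 units in wild type, against 84.1 and 82.6 units in the knockout, below the threshold on all 4 arrays. Across 15955 genes tested with limma, 0 passed a Benjamini-Hochberg adjusted p of 0.05, and 1076 had an unadjusted p under 0.05, of which 585 were higher and 491 lower in the knockout. That split was 397 and 676 after scaling to a common median and 217 and 462 in the authors' deposited table. In bulk tissue, fewer cells of a type and less RNA per cell cannot be told apart.

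Of the 7 genes, Saraf gave a bright signal, Orai1 an intermediate one, and the others lay closer to the detection threshold. Spot medians include the blank level. On an array the blank spots had a median of 78.4 to 87.5 units and the gene probes one of 95.5 to 106 units. The spot of Saraf read 12.2 to 18.4 times the threshold of its array. That of Orai1 read 2.10 to 2.36 times the threshold, and those of Orai3, Stim1, Stim2 and Stimate between 1.23 and 1.58 times. Orai2 straddled the threshold, with 1.02 and 0.986 times in wild type, against 0.984 and 1.01 times in the knockout. It was thus above background on 1 of 2 arrays in each genotype, while the other 7 probes were above it on all 4 arrays. All 7 genes passed the filter of at least 2 arrays above background. Different probes bind with different strength, so these ratios do not rank the genes by transcript level. They give the distance of each signal from the detection threshold and not its precision.

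**Figure D1:**
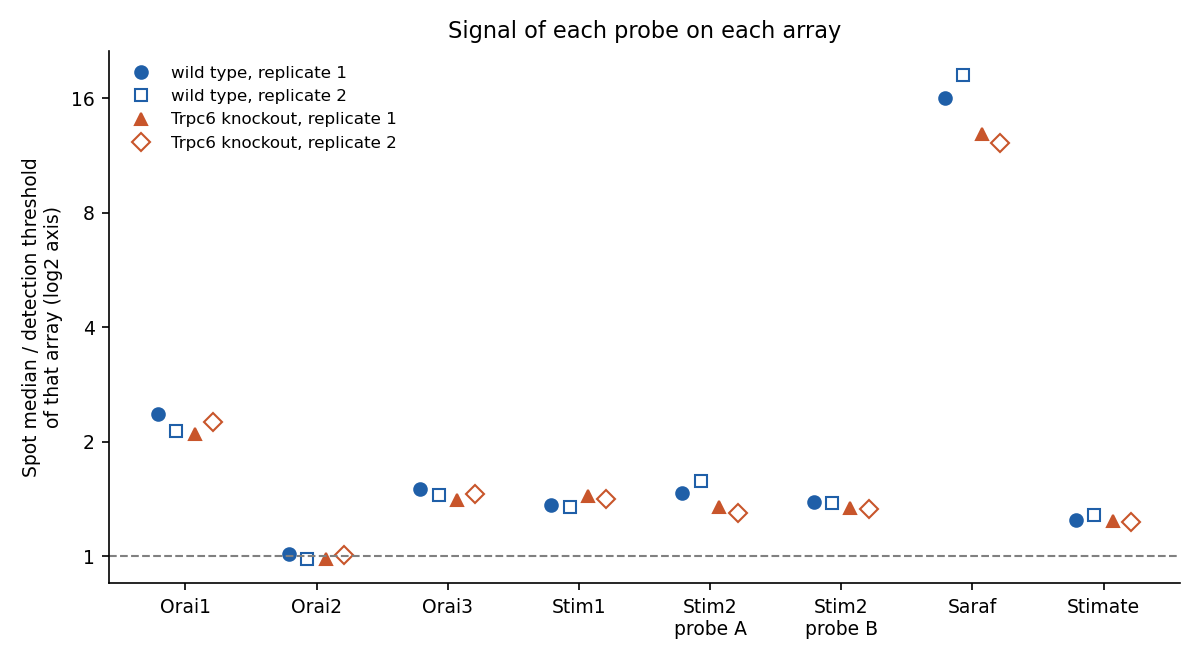
Spot median of each probe divided by the detection threshold of the same array, on a log2 axis, for 2 wild-type and 2 Trpc6 knockout arrays. The dashed line is the threshold. Saraf sits at 12.2 to 18.4, Orai1 at 2.10 to 2.36, and Orai2 on the line. Stim2 probe A is M400007318 and probe B is M300011991.

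In the reported fit, Saraf and Stim2 had lower values and Stim1 had higher values in the knockout than in wild type. The 3 pore subunits and Stimate differed by less than their standard errors. The differences were -0.40 ± 0.09 for Saraf, -0.21 ± 0.08 for Stim2 and 0.14 ± 0.05 for Stim1 (normalized log2 intensity, knockout minus wild type, ± limma standard error, n = 2 arrays per group), or 24.3% lower, 13.7% lower and 10.2% higher. The sign of Saraf turned with local background subtracted, to 0.12, and the other probe of Stim2 gave -0.03 ± 0.04 with overlap of the groups. By limma 0 of the 7 genes passed the adjusted threshold, where the background was 0% of all genes tested. At an unadjusted p under 0.05, 2 of the 7 genes were counted, beside a background of 6.74%: Stim1 among the higher genes (background 3.67%) and Saraf among the lower (3.08%). The groups did not overlap in 4 of the 7 genes, beside 36.8% of all genes tested, with 3 lower in the knockout, beside 17.4%, and 1 higher, beside 19.4%. The median difference of the 7 genes was -0.016, and that of all genes tested was 0.0017. Since the genes were proposed with this contrast in view, these counts support nothing further.

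**Figure D2:**
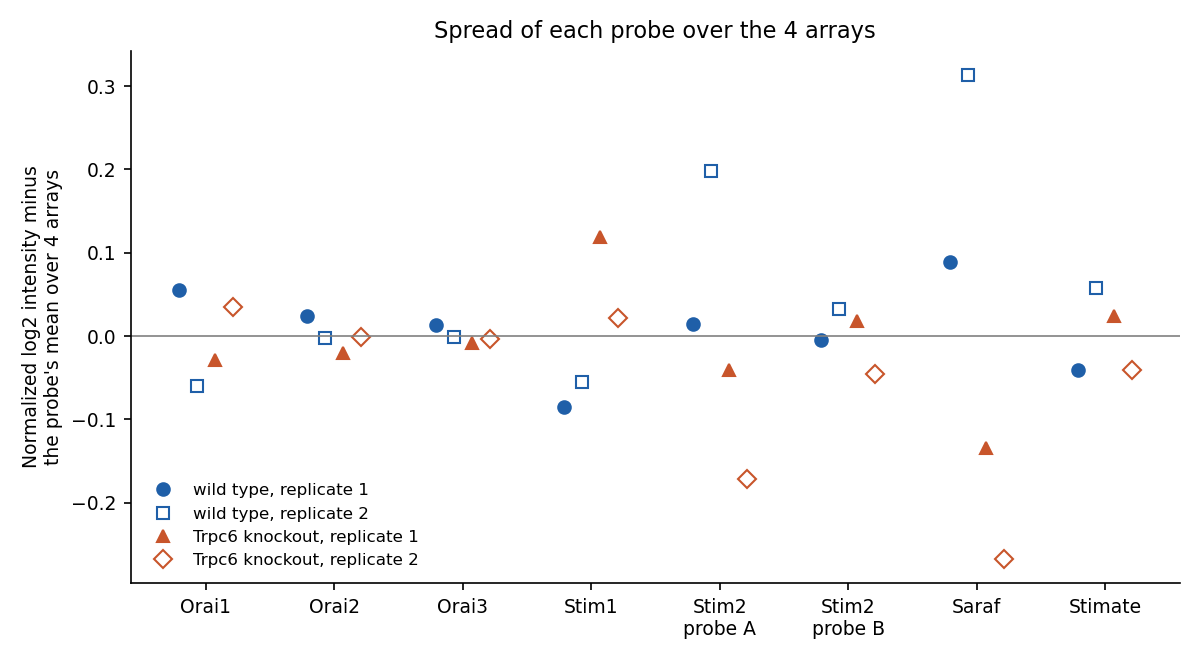
Normalized log2 intensity of each probe minus its own mean over the 4 arrays, 1 point per array. Saraf spans 0.58 and Stim2 probe A (M400007318) 0.37, and Orai3 spans 0.023.

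The sensors Stim1 and Stim2 are paralogues in the reticulum membrane, where STIM1 drives most store-operated entry and STIM2 responds to smaller losses of calcium. Stim1 lies on chromosome 7 (GRCm38.p6, chr7:102261514-102437319) and Stim2 on chromosome 5 (chr5:53998523-54121057). As they are paralogues, their promoter windows are shown side by side, as 250 bases before to 50 after a RefSeq start (GRCm38.p6, both on the plus strand). The windows are chr7:102267569-102267868 for Stim1 and chr5:53998273-53998572 for Stim2. The Stim1 window lies inside the gene span given above, so its start is not the outermost one. The part of the promoters in the differences was not tested. Capitals mark the GC box GGGCGG on either strand, the sequence bound by factors of the Sp1 family.
Stim1: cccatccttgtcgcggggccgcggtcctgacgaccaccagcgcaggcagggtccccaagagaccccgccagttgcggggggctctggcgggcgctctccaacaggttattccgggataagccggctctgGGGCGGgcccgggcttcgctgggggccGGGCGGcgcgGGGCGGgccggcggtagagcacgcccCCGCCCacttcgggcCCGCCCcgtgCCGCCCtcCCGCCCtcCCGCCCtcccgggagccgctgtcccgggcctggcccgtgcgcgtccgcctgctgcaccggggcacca
Stim2: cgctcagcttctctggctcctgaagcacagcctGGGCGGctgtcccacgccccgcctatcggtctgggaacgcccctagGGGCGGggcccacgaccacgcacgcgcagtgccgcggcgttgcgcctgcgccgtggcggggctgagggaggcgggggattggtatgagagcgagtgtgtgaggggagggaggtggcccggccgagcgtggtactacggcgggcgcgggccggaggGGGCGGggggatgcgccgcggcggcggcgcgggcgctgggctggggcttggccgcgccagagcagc
The Stim1 window held 8 GC boxes and the Stim2 window 3. Both windows were rich in CpG, with 38 and 39 CpG dinucleotides and an observed to expected ratio of 0.82 and 0.93, against a median of 7 and 0.38 over 32851 RefSeq windows of the same length.

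Stim1 read 110.0 and 124 scanner units on the wild-type arrays, against 123 and 118 units on the knockout arrays. The raw spots thus overlapped between the genotypes, and the second wild-type array, which carried the highest blank level, had the highest reading. After background correction and quantile normalization the log2 values were 6.40 and 6.43 in wild type, against 6.60 and 6.50 in the knockout. Both knockout arrays then lay above both wild-type arrays, by 0.076 at the closest. The authors' deposited table, which subtracts a constant near the blank level and scales each array, lists 31.0 and 28.9 units in wild type, against 38.5 and 37.5 units in the knockout, a ratio of 1.27. The offset of 50 units added here shrinks differences of dim probes, and with an offset of 16 the log2 difference was 0.23, in place of 0.14. It was 0.09 without the first knockout array and 0.09 after subtraction of the local background. The spot minus its local background was 29.4 and 38.3 units in wild type, against 35.8 and 34.1 units in the knockout, so that the groups overlapped. By limma, Stim1 was not under an unadjusted p of 0.05 with local background subtracted, in the authors' deposited table or with the replicate block. Its log2 difference stayed above 0 in all 14 alternatives computed for it. Those that change only the filter, the variance model or the block, or average its 1 probe, leave the Stim1 difference unchanged by design. Leaving out 1 array cannot turn the sign where the groups do not overlap. Among the marker lists whose summed spot intensity did not overlap between the genotypes, erythroid markers, 5 of 5 above background and all 5 higher, summed to 1339 and 3458 units in wild type, against 3758 and 3782 units in the knockout. The sums of the skeletal muscle list (2743 to 3015 units in wild type, 3383 to 4909 units in the knockout, 4 of 7 above background on all arrays, Myh4 and Myh1 on none) and of the atrial list (3635 to 3907 and 4487 to 6299 units, 4 of 4 above background) were each carried by 1 gene, picked out after its values were seen. These were Acta1, with a log2 difference of 0.71, and Nppa, with one of 0.64. The lists had median log2 differences of 0.0052 and -0.058, with 3 of 5 and 1 of 4 tested genes higher. The part of these markers in the Stim1 values was not tested.

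Stim2 was read by 2 probes, which did not show the same difference. Probe M400007318, the brighter and the one that stands for the gene, had log2 values of 6.53 and 6.72 in wild type, against 6.48 and 6.34 in the knockout. Its groups did not overlap, with 0.055 between the nearest arrays, which was less than the 0.18 between both wild-type arrays and the 0.13 between both knockout arrays. Probe M300011991 had values of 6.43 and 6.47 in wild type, against 6.45 and 6.39 in the knockout, so that its groups overlapped and the difference was -0.03 ± 0.04. The mean of both probes gave -0.12. The authors' deposited table lists 39.1 and 45.5 units in wild type, against 31.1 and 28.0 units in the knockout for the first probe, a ratio of 0.70, and a ratio of 0.94 for the second. A single array weighed on the first probe, whose log2 difference was -0.12 without the second wild-type array. Its log2 difference was -0.34 with an offset of 16 units. The local background of the first probe was 65.5% and 54.7% of the spot in wild type, and 72.2% on the second knockout array. These shares lay below the lower deciles of gene probes with a spot median within 10% on the same array, 69.0%, 59.7% and 74.3%. Probe M300011991 lay above the upper decile of such probes on the first wild-type array, 90.0% against 89.2%. The value for Stim2 stayed below 0 in all 14 alternatives, which include the mean of both probes. Those that change only the filter, the variance model or the block leave the difference unchanged by design. Leaving out an array cannot turn the sign where the groups do not overlap. Which transcripts of Stim2 each probe detects was not given in the sources used here, and the platform annotation assigned both probes the same RefSeq transcript.

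Saraf, the inhibitor, lies on chromosome 8 (chr8:34154579-34170847). It read 1293 and 1686 scanner units on the wild-type arrays, against 1101 and 1016.5 units on the knockout arrays. Both knockout readings lay below both wild-type readings before any correction. Normalized log2 values were 10.34 and 10.56 in wild type, against 10.12 and 9.98 in the knockout, 0.22 apart at the closest, and both wild-type arrays differed by 0.22 among themselves. The authors' deposited table lists 1193 and 1289.5 units in wild type, against 967 and 957 units in the knockout, a ratio of 0.77, beside the 24.3% lower normalized value. Leaving out 1 array at a time gave log2 differences of -0.51 to -0.29.

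The local background around the Saraf spot differed between the genotypes as well. It was 570.3 and 1054 units in wild type, against 350.5 and 353 units in the knockout. As a share of the spot it was 44.1% and 62.5% in wild type, against 31.8% and 34.7% in the knockout. Gene probes with a spot median within 10% of that of Saraf on the same array, 98 to 118 probes, had median shares of 51.1% and 37.8% on the wild-type arrays and 41.1% and 57.7% on the knockout arrays. On the second wild-type array the share of Saraf, 62.5%, lay above the upper decile of these probes, 61.8%. On the other arrays it lay between their lower and upper deciles. The spot minus its local background was 723 and 632 units in wild type, against 750.2 and 664 units in the knockout, so that the groups overlapped. With local background subtracted before normalization, the log2 difference of Saraf was 0.12, with the opposite sign. Local background followed the spot over each array, with a correlation of log2 values across all 27456 spots of 0.931 to 0.967, and its part in the Saraf difference was not tested. The brightest of the 8 neighbouring spots read 667 and 876 units in wild type, against 661 and 770.0 units in the knockout. The sums of the fibroblast list (4707 to 4732 units in wild type, 3537 to 4100 units in the knockout, 6 of 6 above background) and of the neutrophil list (602 to 702 and 509 to 548 units, 3 of 5 above background on all arrays) were lower in the knockout. Each rested mostly on 1 gene, picked out after its values were seen, Dcn with a log2 difference of -0.47 and Ly6g with one of -0.75. In the fibroblast list 3 of 6 genes were higher and 3 lower, with a median of 0.0034 and with Col3a1 at 0.49, and in the neutrophil list 1 of 4 tested genes was higher and 3 lower, with a median of -0.068. The part of these markers in the Saraf values was not tested.

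**Figure D3:**
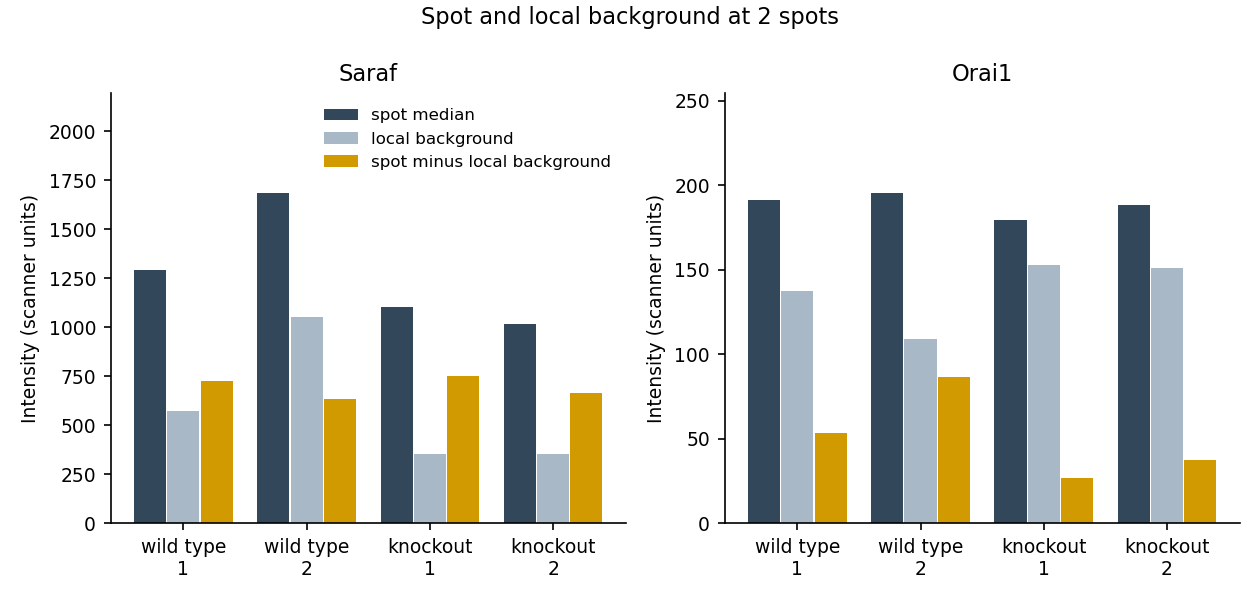
Spot median, local background and their difference in scanner units at the spots of Saraf and Orai1 on each of the 4 arrays, as bars from 0. For Saraf the spot was higher in wild type while the difference was 723 and 632 units in wild type, against 750.2 and 664 units in the knockout. For Orai1 the spots were close and the difference was lower in the knockout.

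Orai1, the main pore subunit of the calcium release-activated channel, lies on chromosome 5 (chr5:123015074-123030452). It read 191 and 196 units in wild type, against 179 and 188 units in the knockout. Normalized log2 values of 7.37 and 7.25 in wild type, against 7.29 and 7.35 in the knockout overlapped, with a difference of 0.01 ± 0.06. The authors' deposited table lists 110.6 and 87.0 units in wild type, against 91.7 and 109.6 units in the knockout, a ratio of 1.02. The local background at its spot was 137 and 109 units in wild type, against 153 and 151 units in the knockout, and the spot minus the local background was 53.6 and 86.5 units in wild type, against 26.8 and 37.4 units in the knockout. On the first knockout array the local background was 85.1% of the spot, above the upper decile of probes with a like spot median, 84.3%. On the other arrays its share lay between their lower and upper deciles. With local background subtracted the log2 difference of Orai1 was -0.42. The size and sign of the Orai1 difference thus depended on the background setting.

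Orai2, a subunit that forms mixed channels with Orai1 and dampens them, lies on the same chromosome (chr5:136147456-136170697). It read 82.1 and 90.2 units in wild type, against 84.1 and 83.8 units in the knockout, with 1 array of each genotype above background. The authors' deposited table lists 3.6 units on the first wild-type array and 2.6 units on the second knockout array, with the other 2 cells empty. A signal this close to the blank spots gives no usable fold change, and the measurement does not show whether the transcript was present.

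Orai3, the pore subunit found only in mammals, lies on chromosome 7 (chr7:127769815-127775150). It had the narrowest spread of the 8 probes, with log2 values of 6.58 and 6.56 in wild type, against 6.55 and 6.56 in the knockout. The groups did not overlap, but were 0.0033 apart at the closest, and the difference was -0.01 ± 0.04. The authors' deposited table lists 42.1 and 36.0 units in wild type, against 35.6 and 40.8 units in the knockout, where the groups overlapped. The local background of Orai3 was 89.8% of the spot on the first wild-type array and 92.3% on the second knockout array. Both shares lay above the upper deciles of probes with a like spot median, 88.6% and 89.5%.

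Stimate, also named Tmem110, lies on chromosome 14 (chr14:30825575-30877210). Its log2 values were 6.23 and 6.33 in wild type, against 6.29 and 6.23 in the knockout. The groups overlapped, and the difference was -0.02 ± 0.05. The authors' deposited table lists 21.9 and 23.9 units in wild type, against 22.0 and 21.7 units in the knockout, a ratio of 0.95. The sign of Orai1, Orai2, Orai3 and Stimate changed with the scaling, the background setting or the arrays used, so that no direction is given for them. Saraf had the other sign in 1 of its 14 alternatives, with local background subtracted. Its lower values in the knockout therefore hold only without that subtraction.

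**Figure D4:**
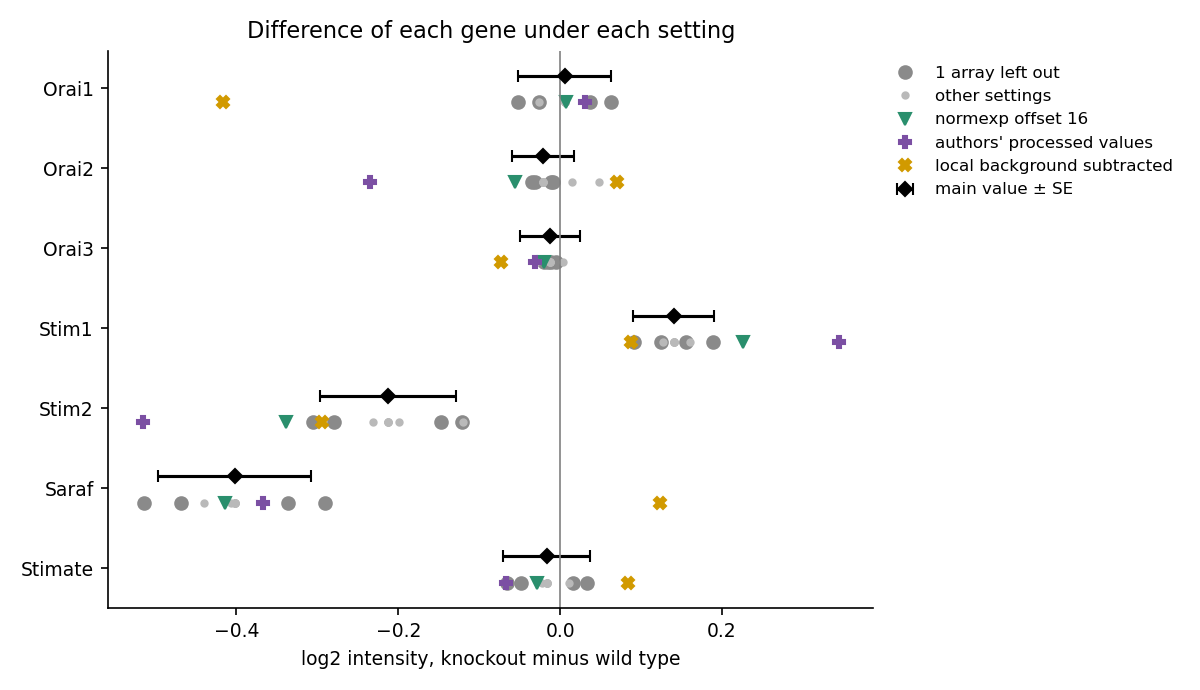
Log2 intensity, knockout minus wild type, for each gene in the reported fit (diamond, ± standard error) and in each alternative. Stim1 stays above 0 and Stim2 below 0 throughout, and Saraf turns from -0.40 to 0.12 with local background subtracted. Alternatives that change only the filter, the variance model or the block leave a difference unchanged by design.

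None of the 7 genes lies on chromosome 9, which carries Trpc6, so none is linked to the deleted locus. Of the 7 genes, 6 had a RefSeq promoter window (GRCm38.p6), and Saraf is named only. A GC box was found in 6 of the 6 windows, with 1 in Orai3, 2 each in Orai2 and Stimate and 3 in Orai1, against 35.7% of all windows. The 6 windows held from 57.7% (Orai3) to 78.7% (Stim1) G and C, against a median of 52.7% over all windows. The GC box is made of G and C only, so this comparison is not at equal base content. The 5-base core GGAAA of NFAT sites, searched on both strands and able to share its G bases with a GC box, was found in the windows of Orai2, Orai3 and Stimate, and in 61.3% of all windows. These matches describe the sequence and do not show binding.

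For the genes above background on all arrays whose values spanned at least 0.3 on the log2 scale, the genes of most similar course over the 4 arrays were sought among 13656 others, by the root mean square difference of mean-centred log2 values. For Saraf these were Mlip, at 0.018, and Hdlbp, at 0.022, with knockout minus wild-type differences of -0.40 and -0.36. For Stim2 they were Cdc25b, at 0.0080, and Scgb2b26, at 0.011, with differences of -0.22 and -0.23. Stim1, which spanned 0.20, did not qualify. Over 4 arrays such likeness was not particular to the named genes. Of the 13656 genes, 25 lay within 0.05 of Saraf and 242 within 0.05 of Stim2. The differences of the named genes follow from their choice by these same 4 values.

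Genes that work around store-operated entry went both ways. Of 53 genes in 4 lists, 44 had a named probe and 40 were tested, of which 20 were higher and 20 lower in the knockout. By limma 0 passed the adjusted threshold, and 3 higher and 1 lower of the 40 had an unadjusted p under 0.05, beside 3.67% and 3.08% of all genes tested. Their median was 0.0003 and their median absolute difference 0.055, against 0.0017 and 0.043 over all genes tested, and the groups did not overlap in 16 of the 40, beside 36.8% of all genes tested.

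Genes of the calcium store, which release calcium, refill the store or act as chaperones and calcium-binding proteins in its lumen, were lower in 6 and higher in 4 of 10, with a median of -0.029. Itpr2 and Itpr3, receptors for inositol trisphosphate, had log2 differences of 0.05 ± 0.06 and -0.10 ± 0.09, and Itpr2 was above background on 3 of 4 arrays. Ryr2, the calcium release channel of the sarcoplasmic reticulum, was at 7.18 and 6.99 in wild type, against 7.09 and 7.05 in the knockout. Atp2a2, the SERCA2 pump that refills the store, was at 14.67 and 14.88 in wild type and at 14.67 on both knockout arrays, so that the groups touched. Quantile normalization sets values by rank, so the equal values of Atp2a2 mean equal rank and not equal measured intensity. Pln, the inhibitor of that pump, was at 14.17 and 14.08 in wild type, against 14.00 and 14.05 in the knockout, a difference of -0.10 ± 0.05 without overlap.

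Regulators of STIM and ORAI were higher in 8 and lower in 7 of 15, with a median of 0.018. Cracr2a, a cytosolic protein that stabilises the STIM1 and ORAI1 complex, was at 6.39 and 6.29 in wild type, against 6.42 and 6.43 in the knockout, without overlap. Esyt1, a tether between reticulum and plasma membrane, was at 6.65 and 6.67 in wild type, against 6.75 and 6.78 in the knockout, a difference of 0.10 ± 0.04 without overlap. Asph, whose locus encodes the reticulum protein junctate, had a log2 difference of 0.17 ± 0.10 with overlap of the groups. Sppl3, an intramembrane protease that promotes STIM1 and ORAI1 association, had one of -0.02 ± 0.05.

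Other carriers of calcium across the cell membrane were higher in 4 and lower in 4 of 8, with a median of -0.0024. Trpc1, a relative of Trpc6 studied as a partner of STIM1, was at 6.40 and 6.46 in wild type, against 6.39 and 6.44 in the knockout. Cacna1c, the pore of the L-type channel, and Slc8a1, the sodium-calcium exchanger, had log2 differences of 0.12 ± 0.08 and 0.09 ± 0.07 with overlap. In the calcineurin and NFAT list, which acts downstream of calcium entry, 4 genes were higher and 3 lower of 7, with a median of 0.0088. Ppp3ca, a catalytic subunit of calcineurin, was at 7.73 and 7.69 in wild type, against 7.84 and 7.97 in the knockout, a log2 difference of 0.19 ± 0.06 without overlap. Ppp3cb, another catalytic subunit, and the factor Nfatc3 had log2 differences of -0.03 ± 0.04 and -0.04 ± 0.04. Each was smaller than its standard error, though the groups did not overlap. The calcineurin regulator Rcan1 had one of -0.06 ± 0.08 with overlap. By limma, no gene of these lists passed after adjustment over all genes tested.

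**Figure D5:**
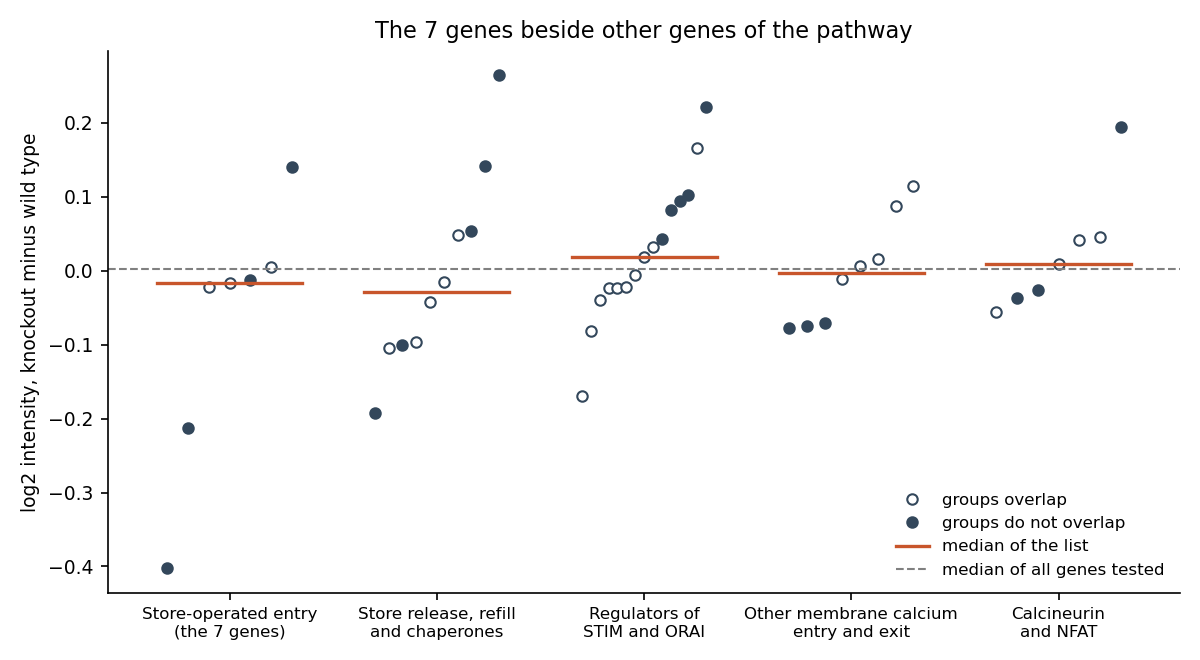
Log2 intensity, knockout minus wild type, of the 7 genes and of the tested genes of 4 pathway lists, 1 point per gene, ordered by value within a list. Filled points have no overlap between the genotypes, the bars are list medians, and the dashed line is the median of all 15955 genes tested, 0.0017.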

How the data were processed

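The deposited scanner files hold spot and local background medians at 635 nm as linear intensity, per the file headers, from 3 scanner gains joined in a way that no source used here gives. The authors' deposited table holds processed intensity. Set against the spot medians it was a straight line on each array, with a constant of 78.4 to 87.7 units subtracted and a scale of 0.807 to 1.02.

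Background correction of the spot medians used normexp (limma 3.58.1, R 4.3.3) over 27456 spots, with 50 units added as an offset and no local background, followed by quantile normalization of log2 values. A probe was kept if above the 95th percentile of 384 blank and 96 negative control spots on at least 2 arrays, and the brightest kept probe stood for a gene. Genotypes were compared over 15955 genes with lmFit and eBayes without covariates and Benjamini-Hochberg adjustment, two-sided. Symbols came from the platform annotation, positions and promoters from RefSeq. The limma step was tested on simulated data.

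The genes, lists and alternatives were chosen with earlier results of these data known. Named were the 7 genes, Trpc6, listed pathway genes fixed by name and, for genes spanning at least 0.3, the 2 most similar genes. Marker lists also covered endothelial, smooth muscle and pericyte, macrophage, lymphocyte, adipocyte and nerve cells, whose summed intensities overlapped between the genotypes.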

Additional observations from a re-analysis of the deposited data

How the results depend on the processing

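The count of genes past the adjusted threshold was 0 in each alternative computed, except that it ranged from 0 to 1 when 1 array was left out, where Hba-a2 passed without the second wild-type array at an adjusted p of 0.0487. In such fits 1 genotype has a single array, which is assumed to vary like the pair of the other genotype. The 7 genes kept a count of 0 in all 14 alternatives, as did the pathway lists in both of theirs. With the replicate number as a block the count was 0 for all genes and 0 for the 7 genes. Equal replicate numbers did not deviate together, with a correlation across 15955 genes of 0.0967, and there were 2 pairs only. At an unadjusted p under 0.05 the count of 1076 became 2344 without the first wild-type array, 444 without the second knockout array and 679 in the authors' deposited table, and the share of higher genes, 54.4%, became 37.0% with median scaling, 63.4% with 75th percentile scaling and 32.0% in the authors' deposited table. For the 7 genes, 80 of 97 alternative values moved by less than the replicate SD and 13 of 97 had the other sign, 4 of these after local background subtraction, in Orai1, Orai2, Saraf and Stimate. The causes were not tested. Settings that change only the filter, the variance model or the block leave a difference unchanged, as does averaging probes where a gene has 1. Leaving out 1 of 2 arrays cannot move a difference by more than the replicate SD. The count of 80 is therefore no measure of stability. The number of probes above background on all arrays was 7 of 8 with the 99th percentile or mean plus 2 SD as threshold too. With median scaling, the list medians went from -0.0024 to 0.0053 (other membrane calcium entry and exit), 0.018 to 0.0040 (regulators), 0.0088 to 0.0003 (calcineurin and NFAT) and -0.029 to -0.044 (store), and with an offset of 16 to -0.0016, 0.024, 0.015 and -0.051 in the same order. Dim signals limit Orai2, Orai3, Stim1, Stim2 and Stimate, whose fold changes the offset shrinks.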
